A study of Sus scrofa with 15 samples.

Results

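The genes described here are 9 that belong to amino acid supply and tRNA charging: the transcription factor ATF4, the amino acid synthesis enzymes ASNS, PHGDH and PSAT1, and the aminoacyl-tRNA synthetases AARS, GARS, NARS, WARS and EPRS. Each was taken as the probe sets whose only symbol in the array annotation was that gene, with 1 probe set kept per gene by the highest mean over all arrays. All 9 were measured, by 17 probe sets in all, out of 6765 named genes and 23999 probe sets on the Affymetrix porcine genome array. The genes had been selected on their higher level in culture in these same arrays, so their changes between days are given as a description with no test.

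The cells were granulosa cells, the somatic cells that surround the oocyte and make estradiol, taken from pig ovarian follicles. They were sampled before culture (day 0) and on days 1, 2, 4 and 7 of culture, over which they lose their differentiated state and become what the submitters call DFOG cells. Each day had 3 arrays, labelled as biological replicates, and no treatment or genotype separates the groups, so time since plating and everything that came with culture cannot be told apart. The labels give neither the age of the animals, nor the medium, nor whether a replicate was 1 animal, 1 culture or a pool.

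Cells read amino acid supply through uncharged tRNA, which activates the kinase GCN2; other kinases answer unfolded protein in the endoplasmic reticulum, double-stranded RNA or lack of heme. All of them phosphorylate the initiation factor eIF2, which slows most translation but favours that of ATF4, and ATF4 then raises the transcripts of amino acid transporters, of enzymes that make asparagine and serine, and of many cytosolic tRNA synthetases. Because ATF4 is controlled largely at translation, its transcript level does not by itself give its activity. These links are known mainly from human and mouse cells.

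Values are log2 intensities, so a difference of 1 is a fold change of 2. They are relative to the other transcripts on an array, and they come from bulk RNA, in which fewer cells of a type and less RNA per cell cannot be told apart. Array medians ran from 6.40 to 6.55 and lower quartiles from 4.41 to 4.68. The difference between the 3′ and 5′ probes of actin, a measure of RNA quality and labelling, was 0.19 to 0.59 on day 7, against 0.97 to 1.68 on day 0, and replicate 2 of day 4 stood apart with 2.12, against 0.07 and 0.63 in the other two arrays of that day. The replicate 1 arrays of all days lay together on the third principal component, at 29.4 to 48.1, while the other arrays lay between -41.4 and -5.78. On every day replicate 1 also had the smallest actin difference. It was 0.02 to 0.97 in replicate 1 and 0.57 to 2.12 in replicates 2 and 3. The summed level of 13 granulosa markers was between 15.4 and 15.9 on day 0, between 13.6 and 14.4 on day 1 and between 10.8 and 11.0 on day 7, and that of 6 theca and stromal markers was 8.81 to 9.40, 9.59 to 10.1 and 12.6 to 12.8 on the same days. These sums are log2 of summed intensities. Of the 13 granulosa markers, 8 were called lower on day 1 and 7 on day 7 against day 0, beside 6.03% and 7.28% of all probe sets. GATA4 was called higher on day 1 (10.29, against 9.13 on day 0) and FSHR on day 2 (8.24, against 7.01). FOXL2 stood at 5.9 on days 0 and 7, and CYP19A1 at 5.26 and 5.08. Within the theca and stromal list the stromal genes DCN, LUM, COL1A2 and PDGFRB were called higher on day 7 against day 0, by 7.22, 5.95, 2.23 and 4.62, the theca gene INSL3 was called lower, at -2.36, and CYP17A1 was not called (0.30). Macrophage markers (7 of 10 measured, summed level 7.79 to 7.91 on day 7 and 7.36 to 7.59 on day 0) and lymphocyte and granulocyte markers (8 of 10, 7.38 to 7.55 on day 7 and 7.26 to 7.81 on day 0) had low sums; 5 and 6 of them were below the lower quartile on day 0, none of the lymphocyte and granulocyte markers was called on day 7, and the macrophage marker CD14 was called higher on day 7, at 6.54, against 4.87 on day 0. Endothelial markers (8 of 8) summed to 8.78 to 9.33 on day 7 and 8.93 to 9.32 on day 0, sums that hold opposed changes: on day 7 ERG and PECAM1 were called higher, by 3.43 and 1.49, and TIE1 lower, at -2.40. Red cell markers (2 of 5) summed to 8.48 to 8.70 and 8.72 to 9.15 on the same days. The part of RNA quality, replicate 1 and changing cell makeup in the results below was not tested, apart from the values given without single arrays.

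Of the 9 genes, 8 were higher on every array of day 1 than on any array of day 0. The same held for 8 on day 2 and for all 9 on days 4 and 7. Of all probe sets it held for 20.7%, 21.1%, 21.1% and 23.0% on days 1, 2, 4 and 7. The 9 genes did not follow a single course. ATF4 was highest on day 1, the synthetases AARS, GARS and NARS were already near their later level on day 1, ASNS stood higher on day 2 than on day 1, and PSAT1 and PHGDH had their largest step between days 1 and 2. EPRS stood highest on days 4 and 7. The median log2 change of the 9 genes against day 0 was 1.16 on day 1, 1.21 on day 2, 1.32 on day 4 and 1.61 on day 7, beside medians between -0.06 and 0.00 over all probe sets. Since the genes were chosen for these differences, nothing further is read from the counts below.

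**Figure D1:**
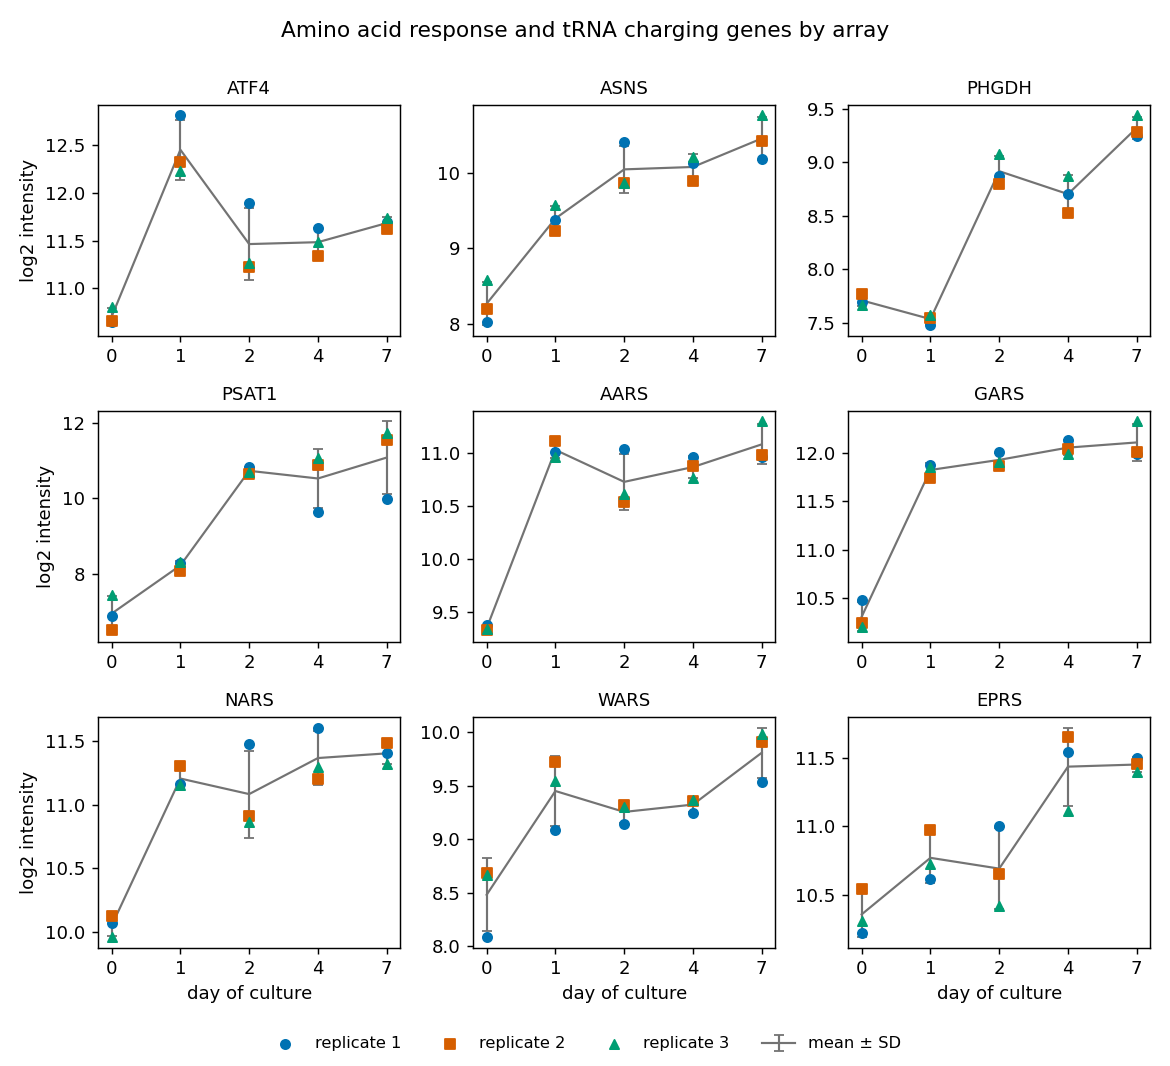
Log2 intensity (vertical axis, scaled to each gene) of the 9 genes on each of the 15 arrays by day of culture (horizontal axis, days evenly spaced); symbols mark the replicates and the line joins day means with SD, n = 3. ATF4 is highest on day 1, PSAT1 and PHGDH step up between days 1 and 2, and replicate 1 of PSAT1 lies below the other two on days 4 and 7.

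A call needed both a limma p under 0.05 after Benjamini-Hochberg adjustment over all probe sets and a log2 difference of 1 or more either way. By this rule 6 of the 9 genes were called higher on day 1, 6 on day 2, 6 on day 4 and 8 on day 7, each against day 0, where 6.47%, 7.68%, 9.29% and 9.36% of all probe sets were called higher. The count on day 1 was 3 with cyclic loess, and that on day 4 was 4 with the mean of a gene's probe sets. None of the 9 was called lower, where 6.03%, 6.09%, 6.59% and 7.28% of all probe sets were. Arrays of the later day lay wholly above those of day 0 for 20.7% of all probe sets on day 1, 21.1% on day 2, 21.1% on day 4 and 23.0% on day 7. Between neighbouring days, PSAT1 and PHGDH were called higher on day 2 than on day 1 (background 2.04% higher and 1.00% lower). ATF4 just missed a call in that comparison. It was called lower under the 3 other scalings and with replicates 2 and 3 only. The same call came without replicate 2 or 3 of day 1 or without replicate 1 of day 2. None of the 9 was called between day 4 and day 2 (2.00% and 0.538%) or between day 7 and day 4 (0.0458% and 0.0125%). On day 7 against day 1, ASNS, PSAT1 and PHGDH were called higher (5.73% and 3.31%). The call of ASNS (1.06) was lost after a second quantile normalization (0.99) and without replicate 3 of day 7 (0.91). The count was also 2 without replicate 2 of day 1. The comparisons with day 0 share its 3 arrays and are not independent of each other.

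ATF4 (probe set Ssc.11072.1.S1_at), the regulator, read 10.65, 10.66 and 10.80 on day 0, 12.82, 12.32 and 12.23 on day 1, 11.90, 11.23 and 11.27 on day 2, 11.64, 11.34 and 11.49 on day 4, and 11.70, 11.62 and 11.74 on day 7. The day 1 arrays lay above all others and the day 0 arrays below all others, while days 2, 4 and 7 lay between with neighbouring days overlapping. The log2 change was 1.75 ± 0.19 (SE of the fit, as for each change below) on day 1 against day 0, a fold of 3.37. It was 0.76 on day 2, 0.78 on day 4 and 0.98 on day 7, each under the minimum change for a call. From day 1 onward the difference ran the other way: day 2 minus day 1 was -0.99 and day 7 minus day 1 was -0.77. Day 2 minus day 1 was -1.12 after a second quantile normalization, -1.02 with arrays shifted to the same median and -1.05 with cyclic loess. Replicate 1 stood 0.54 above the mean of the other two on day 1 and 0.65 above it on day 2.

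ASNS (Ssc.11609.1.A1_at) makes asparagine from aspartate and glutamine and is the textbook target of the amino acid response. It read 8.03, 8.19 and 8.58 on day 0, 9.38, 9.23 and 9.58 on day 1, 10.41, 9.87 and 9.87 on day 2, 10.13, 9.89 and 10.22 on day 4, and 10.19, 10.42 and 10.76 on day 7. Day 0, day 1 and the later days formed 3 separate levels, and days 2, 4 and 7 overlapped. The change was 1.13 ± 0.20 on day 1 and 2.19 ± 0.20 on day 7 against day 0, a fold of 4.56 by day 7. Thus ASNS stood 1.06 higher on day 7 than on day 1, while ATF4 stood lower.

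PHGDH (Ssc.2622.1.S1_at) catalyses the first step of serine synthesis from the glycolytic intermediate 3-phosphoglycerate. It read 7.70, 7.77 and 7.66 on day 0, 7.48, 7.55 and 7.58 on day 1, 8.87, 8.80 and 9.08 on day 2, 8.71, 8.53 and 8.87 on day 4, and 9.24, 9.28 and 9.44 on day 7. It was the only one of the 9 whose day 1 arrays all lay below day 0, by a change of -0.17 ± 0.13. Its day 2 arrays stood 1.38 above day 1, and its day 7 arrays lay above those of every other day, 1.61 above day 0.

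PSAT1 (Ssc.19839.1.S1_at), the aminotransferase of the next step, had the largest change of the 9. It read 6.89, 6.51 and 7.43 on day 0, 8.28, 8.09 and 8.30 on day 1, 10.84, 10.65 and 10.71 on day 2, 9.63, 10.89 and 11.07 on day 4, and 9.98, 11.54 and 11.73 on day 7. Days 0 and 1 were separate from each other and from all later days, and days 2, 4 and 7 overlapped. The change against day 0 was 1.28 ± 0.43 on day 1, 3.79 on day 2, 3.58 on day 4 and 4.14 on day 7, a fold of 17.6. Replicate 1 lay 1.34 below the mean of the other two on day 4 and 1.65 below it on day 7. With replicates 2 and 3 only, the day 7 change was 4.66, a setting chosen after seeing the data.

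The 5 synthetases load alanine (AARS), glycine (GARS), asparagine (NARS), tryptophan (WARS) and, in the bifunctional EPRS, glutamate and proline onto their tRNAs. AARS (Ssc.5773.1.A1_at) read 9.37, 9.32 and 9.33 on day 0, 11.01, 11.12 and 10.97 on day 1, 11.03, 10.54 and 10.61 on day 2, 10.97, 10.88 and 10.76 on day 4, and 10.96, 10.99 and 11.30 on day 7. Only day 0 was separate from the next day in the order of levels. The change was 1.69 ± 0.15 on day 1 and 1.74 ± 0.15 on day 7 against day 0.

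GARS (Ssc.18444.1.S1_at) read 10.47, 10.24 and 10.20 on day 0, 11.88, 11.74 and 11.85 on day 1, 12.01, 11.87 and 11.90 on day 2, 12.14, 12.05 and 11.99 on day 4, and 11.99, 12.01 and 12.33 on day 7. As with AARS, only day 0 was separate from the next day in the order of levels. Unlike AARS, all GARS arrays of day 7 lay above those of day 1. The change of GARS was 1.52 ± 0.13 on day 1 and 1.80 ± 0.13 on day 7. NARS (Ssc.7607.1.A1_at) read 10.07, 10.12 and 9.96 on day 0, 11.16, 11.30 and 11.15 on day 1, 11.48, 10.91 and 10.86 on day 2, 11.61, 11.20 and 11.29 on day 4, and 11.41, 11.48 and 11.32 on day 7. Its change was 1.16 ± 0.16 on day 1 and 1.36 ± 0.16 on day 7, and from day 1 to day 7 neighbours in the order of levels overlapped, while all day 7 arrays lay above those of day 1.

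WARS (Ssc.6139.1.S1_at), which interferon gamma also raises in human cells, read 8.08, 8.69 and 8.67 on day 0, 9.08, 9.72 and 9.54 on day 1, 9.14, 9.32 and 9.30 on day 2, 9.24, 9.36 and 9.37 on day 4, and 9.54, 9.90 and 9.98 on day 7. Replicate 1 was the lowest array on every day, by 0.12 to 0.59 below the mean of the other two. The change was 0.97 ± 0.20 on day 1, under the minimum change, and 1.33 ± 0.20 on day 7. WARS probe set Ssc.6139.1.S1_a_at, not kept, was called higher on days 1, 2, 4 and 7 against day 0 (1.45, 1.03, 1.08 and 1.61). Ssc.6139.2.S1_at, also not kept, was called on day 7 only (0.94 on day 1, 1.32 on day 7). EPRS (Ssc.7362.1.S1_at) read 10.22, 10.54 and 10.31 on day 0, 10.61, 10.97 and 10.72 on day 1, 11.00, 10.66 and 10.42 on day 2, 11.54, 11.65 and 11.11 on day 4, and 11.50, 11.46 and 11.39 on day 7. Days 0, 2 and 1 overlapped in that order and lay below days 4 and 7, so EPRS was the latest of the synthetases, with 0.41 ± 0.18 on day 1 and 1.09 ± 0.18 on day 7.

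The 8 probe sets that were not kept gave the same signs on day 7 but showed how far replicate 1 could depart. EPRS probe set Ssc.21447.1.S1_at read 10.29 in replicate 1 of day 4, against 7.19 and 8.77 in the other two, and 10.14 on day 2, against 8.15 and 7.84. GARS probe set Ssc.18444.2.S1_at read 9.42 in replicate 1 of day 4, against 6.98 and 8.47, and 9.52 on day 1, against 7.79 and 8.05. The departures ran the other way for ATF4 probe set Ssc.11072.2.A1_at, near the lower quartile of the arrays, which read 4.94 in replicate 1 of day 1 and 6.31 and 6.18 in the others. In the day 4 values of the EPRS and GARS probe sets, the lowest was replicate 2, the array with the actin difference of 2.12. Replicate number and the actin difference went together, and the part of RNA quality in these departures was not tested.

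A dim second AARS probe set, Ssc.5773.1.S1_at, ran between 5.34 and 6.15 over all arrays, and the mean of both AARS probe sets lowered its change to 1.15 on day 1 and 1.07 on day 7. The kept probe sets of GARS and EPRS did not set replicate 1 apart in this way: its distance from the other two was 0.08 to 0.25 for GARS in size and 0.08 to 0.47 for EPRS.

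**Figure D2:**
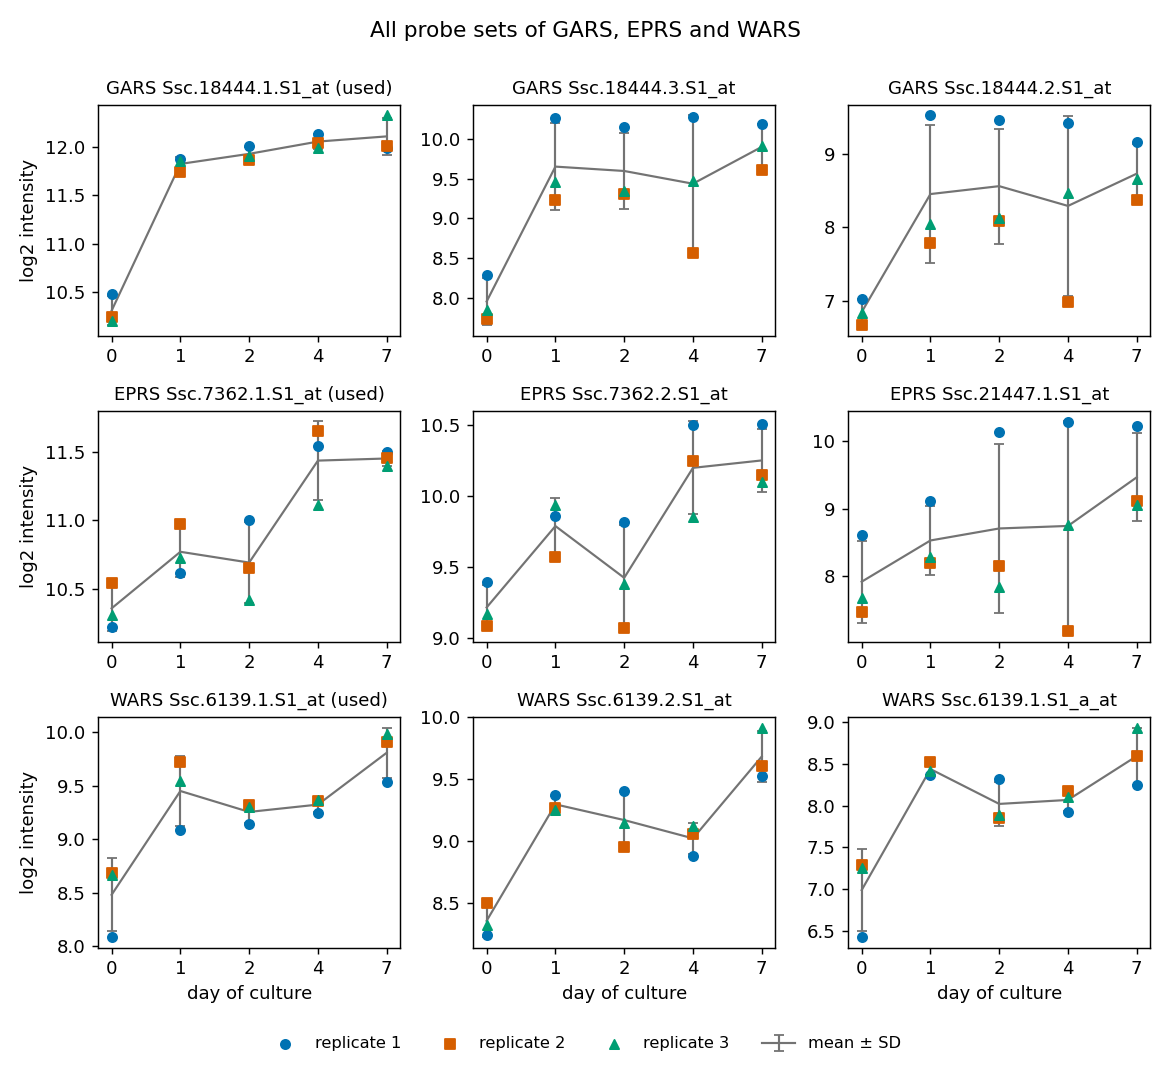
Log2 intensity (vertical axis) of the 3 probe sets each of GARS, EPRS and WARS on each array by day of culture (horizontal axis); symbols mark replicates and the line joins day means with SD, n = 3. In 2 GARS probe sets and EPRS Ssc.21447.1.S1_at, replicate 1 lies above the others on every day. Among the probe sets used, replicate 1 is highest for GARS on days 0, 1, 2 and 4, and lowest for WARS on every day.

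The genes beside these in the pathway were followed in 8 lists that hold none of the 9, with 106 of 181 genes measured, 1 probe set each. Unlike the 9, these were tested, although the lists were written with earlier results of these data known. Over all lists, 17 genes rose and 15 fell on day 1, 14 and 11 on day 2, 17 and 8 on day 4, and 21 and 9 on day 7, each against day 0. The share of called genes that were higher was 53.1% on day 1, 56.0% on day 2, 68.0% on day 4 and 70.0% on day 7, beside 51.7%, 55.8%, 58.5% and 56.2% of all called probe sets. For the pathway genes it was 45.5%, 42.1%, 52.2% and 57.1% with cyclic loess, and 45.5%, 47.8%, 50.0% and 56.0% after a second quantile normalization.

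Of the other cytosolic synthetases and their scaffold proteins, 6 of 13 measured rose on day 1 and none was called lower (1 gene, KARS at -0.29, was lower at an unadjusted p under 0.05), a count that stayed at 6 in the 24 alternatives that kept the minimum change. The median change was 0.78, and RARS, LARS and AIMP1, at 0.23, 0.28 and 0.19, were among those not called. SARS, which charges serine tRNA, averaged 9.24 ± 0.12 on day 0, 11.10 ± 0.51 on day 1 and 11.21 ± 0.25 on day 7 (SD, n = 3), changes of 1.87 ± 0.22 on day 1 and 1.98 ± 0.22 on day 7 (limma adjusted p = 3.6e-05 and 1.15e-05). VARS, for valine, peaked with ATF4 on day 1, at 9.91, 10.17 and 10.49, against 8.03, 8.03 and 8.19 on day 0 (change 2.11 ± 0.16, limma adjusted p = 8.16e-07). It was the only synthetase called between day 7 and day 1, lower by -1.09 ± 0.16 (limma adjusted p = 0.000288), a call lost without replicate 3 of day 1. HARS, MARS and the scaffold members AIMP2 and EEF1E1, named after their values were seen, rose by 1.17, 1.32, 1.28 and 1.53 on day 1. KARS and AIMP1 were at -0.24 and -0.32 on day 7 and were not called.

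By day 7, 6 of the 13 were higher and none lower (1 lower at an unadjusted p under 0.05), with a median of 1.01. This count depended on scaling: it was 3 after a second quantile normalization and 2 with cyclic loess, and the call of VARS on day 7 (1.01 ± 0.16) was among those lost. On day 2, 4 rose (2 with cyclic loess), and on day 4, 5 rose (2 under either scaling, 3 without replicate 1 of day 4).

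The listed mitochondrial synthetases, those that have a gene of their own, were level or lower. Of 6 measured of 17, none was called higher on any day against day 0, nor higher at an unadjusted p under 0.05, where 6.47% to 9.36% of all probe sets were called higher, so that a count of 0 in so short a list lies near the background. The median change was -0.39 on day 1 and -0.53 on day 7. Called lower were 1 of the 6 on day 1 and 2 on each later day, beside 6.03% to 7.28% of all probe sets. NARS2 lay below the lower quartile on every array. VARS2, the mitochondrial counterpart of VARS, fell to 6.40, 6.37 and 6.37 on day 1, against 7.66, 7.50 and 7.63 on day 0 (-1.22 ± 0.15, limma adjusted p = 5.95e-05), and stood at -1.47 on day 7. Against day 0 it was called lower, and VARS higher, on each later day. FARS2, for phenylalanine, fell by 1.11 on day 2 and by 1.01 on day 7. The count of 2 lower on day 7 was 1 without replicate 2 of day 0, replicate 3 of day 0 or replicate 1 of day 7, and the count of 1 on day 1 was 2 without replicate 1 of day 0.

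**Figure D3:**
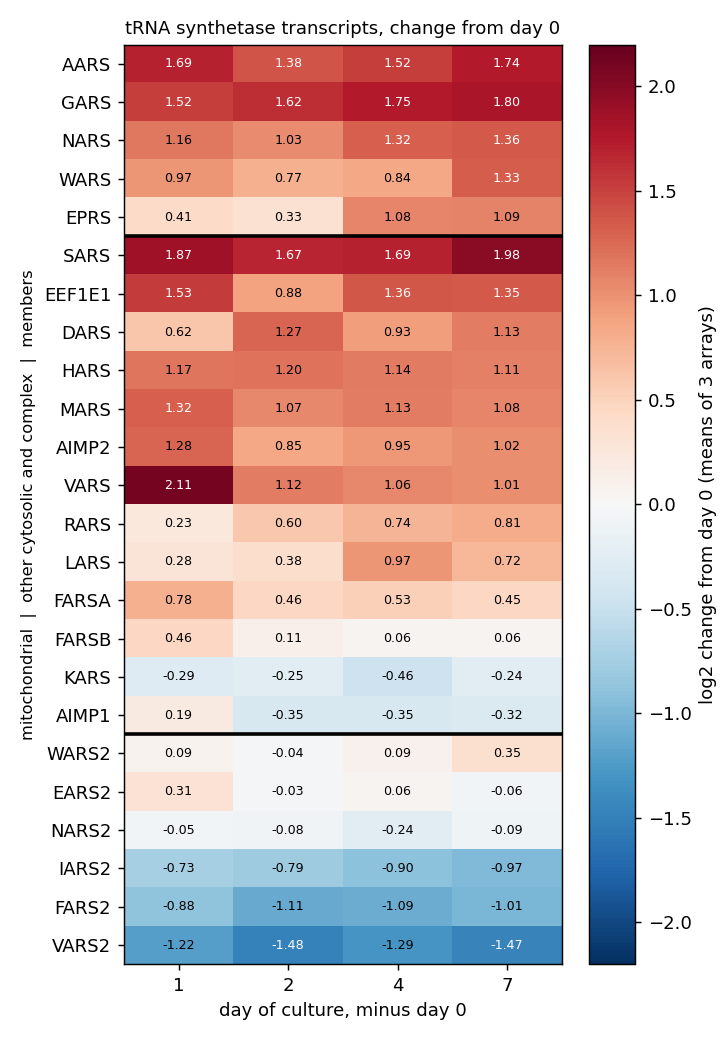
Log2 change from day 0 (colour and printed value, means of 3 arrays each) on days 1, 2, 4 and 7 (columns) for tRNA synthetase genes and scaffold proteins (rows): the 5 described genes at the top, then the other cytosolic genes, then the mitochondrial ones, each of these sorted by day 7. Most cytosolic rows are positive from day 1, and no mitochondrial row passes 0.35.

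Around ATF4 itself, 19 of 33 genes of the stress branch were measured, and they split. On day 1, CEBPD, CEBPG and DDIT3 rose and ATF3 and VLDLR fell. DDIT3 (CHOP), a partner and target of ATF4, shared its day 1 peak: it read 9.13, 9.37 and 9.09 on day 1, against 7.65, 7.92 and 7.99 on day 0 (1.34 ± 0.26, limma adjusted p = 0.00163), and changed by 0.43, -0.03 and 0.53 on days 2, 4 and 7, not called. CEBPG, the dimer partner of ATF4, rose by 1.76 ± 0.34 on day 1 (limma adjusted p = 0.00141) and stood at 1.24 on day 7 (limma adjusted p = 0.0117; lost without replicate 1 of day 0).

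CEBPD rose by 1.81 ± 0.42 on day 1 (limma adjusted p = 0.00603), with replicate 1 at 10.43, against 6.69 in the day 0 array of that number, and the call was lost with replicates 2 and 3 only. CEBPB, a further partner, was called on day 7 at 1.35 ± 0.43 (limma adjusted p = 0.0276), a call lost without replicate 3 of day 0, or without replicate 1 or replicate 2 of day 7.

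ATF3 and PPP1R15A, also known as targets of ATF4, went the other way. PPP1R15A (GADD34), the phosphatase subunit that restores eIF2, read 9.95, 10.50 and 10.52 on day 0, 10.06, 10.12 and 10.13 on day 1, and 8.29, 8.22 and 8.39 on day 7. It fell by 2.03 ± 0.15 by day 7 (limma adjusted p = 1.68e-07) and was at -0.22 on day 1, not called. ATF3 fell by 3.35 ± 0.34 on day 2 (limma adjusted p = 6.71e-06) and stood at -2.50 on day 7. Its day 1 change of -1.04 overlapped day 0, and that call was lost without replicate 2 or 3 of day 0, replicate 2 or 3 of day 1, or replicate 3 of day 7. Both are also known as immediate early genes. Day 0 had their highest mean, and the cause of this was not tested.

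The lipoprotein receptor VLDLR, named after its values were seen, fell by 1.83 ± 0.28 on day 1 and stood 2.28 above day 1 on day 7. Without replicate 2 of day 0 the stress branch had 5 genes higher and 1 lower on day 1, where all arrays gave 3 and 2; 1 fell, too, without replicate 3 of day 0, replicate 2 or 3 of day 1 or replicate 3 of day 7. By day 7, CEBPB and CEBPG were higher and ATF3 and PPP1R15A lower, and without replicate 1 of day 0 or replicate 2 of day 7, with cyclic loess or with only the 6 arrays compared, 1 was higher. TRIB3, a further target of ATF4, and the kinase gene EIF2AK4 (GCN2) had no named probe set.

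Chaperone and folding genes of the endoplasmic reticulum, which respond to unfolded protein through other branches of that response, were in part lower on day 1, the day on which ATF4 was highest. On day 1 none of 13 measured was called higher by limma (0 at an unadjusted p under 0.05), nor in the 24 alternatives that kept the minimum change, and 4 fell against day 0, with a median of -0.62. These were CRELD2 (-1.85 ± 0.19, limma adjusted p = 1.25e-05), HSP90B1 (-1.41 ± 0.20, limma adjusted p = 0.000174) and, named after their values were seen, HYOU1 (-1.29 ± 0.20) and HSPA5 (-1.02 ± 0.14). HSPA5 encodes BiP, the main chaperone of that compartment, and read 12.17, 12.15 and 12.08 on day 1, against 12.97, 13.44 and 13.06 on day 0. The transcription factor gene XBP1 and DNAJB11, DNAJB9 and CANX, at 0.10, -0.01, -0.05 and -0.11 on day 1, were not called.

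On day 2 against day 1, 7 of the 13 rose and none fell (0 lower at an unadjusted p under 0.05), with a median change of 1.17. The count was 5 to 9 over these alternatives. SDF2L1, a cofactor of BiP, read 7.73, 7.81 and 7.96 on day 2 and 5.68, 5.21 and 5.65 on day 1 (2.32 ± 0.19, limma adjusted p = 2.87e-05). By day 7 it stood 2.73 above day 0, while CRELD2 and HSP90B1, at 0.28 and -0.09, were not called. DNAJB11, a further BiP cofactor, rose by 1.50 ± 0.30 by day 7 (limma adjusted p = 0.00148), and DNAJB9, named after its values were seen, by 1.07 ± 0.32 (limma adjusted p = 0.02). On day 7 against day 1, 8 of the 13 were higher and none lower (0 lower at an unadjusted p under 0.05).

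**Figure D4:**
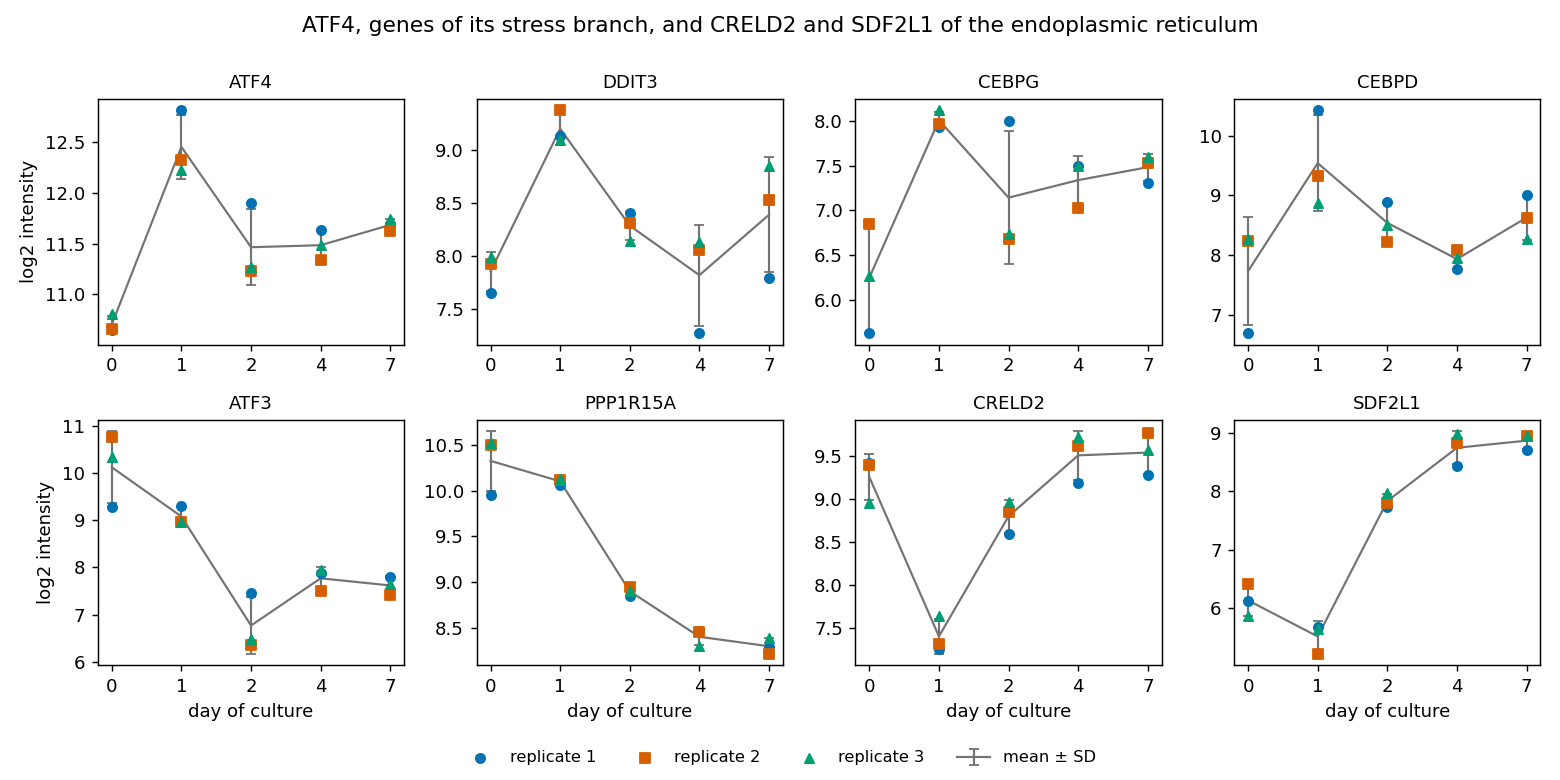
Log2 intensity (vertical axis) by day of culture (horizontal axis) of ATF4, 5 genes of its stress branch, and CRELD2 and SDF2L1, which encode endoplasmic reticulum proteins; symbols mark replicates and the line joins day means with SD, n = 3. ATF4, DDIT3, CEBPG and CEBPD are highest on day 1, where CRELD2 and SDF2L1 are lowest, and ATF3 and PPP1R15A are highest on day 0.

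Among the enzymes of serine, glycine and one-carbon metabolism, 13 of 19 were measured. PSPH, which completes serine synthesis after PHGDH and PSAT1, was called higher from day 2 on and was at 0.88 on day 1, when PHGDH was at -0.17. It read 7.57, 7.25 and 7.48 on day 0, 8.37, 8.29 and 8.27 on day 1, and 9.78, 9.55 and 9.79 on day 7. The day 7 change was 2.27 ± 0.28 against day 0 (limma adjusted p = 2.36e-05) and 1.40 ± 0.28 against day 1 (limma adjusted p = 0.0027). MTHFD2, a mitochondrial folate enzyme and known ATF4 target, was late, with -0.20 on day 1, 0.66 on day 2, 1.41 on day 4 and 1.83 ± 0.21 on day 7 (limma adjusted p = 1.35e-05 on day 7).

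On day 7 these and MAT2A, which makes S-adenosylmethionine and was named after its values were seen, were the 3 genes that rose, and none fell (2 were lower at an unadjusted p under 0.05, and 1 was called in some alternatives). Over the 24 alternatives with the minimum change 2 to 4 rose. The list's median on day 7 lay between -0.01 and 0.36. On day 1 MAT2A rose by 1.50 and MTHFD1L, also named afterwards, by 1.18. AHCY, which clears S-adenosylhomocysteine, fell by 1.08 ± 0.20 on day 1 (limma adjusted p = 0.00105), a call lost without replicate 1 of day 1, and was not called on day 7 (-0.47). SHMT2 had no named probe set.

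Of 11 measured of 25 amino acid transporters, 3 rose on day 1 and 4 on day 7, those of day 7 being SLC1A1, SLC1A5, SLC3A2 and SLC7A1. SLC7A1, the carrier of arginine and lysine and a known ATF4 target, rose early and stayed: it read 7.44, 7.64 and 7.34 on day 0, 9.08, 9.62 and 9.63 on day 1, and 9.42, 9.92 and 9.83 on day 7, changes of 1.97 ± 0.18 on day 1 and 2.25 ± 0.18 on day 7 (limma adjusted p = 3.99e-06 and 4.56e-07). SLC3A2, the heavy chain shared by several exchangers, peaked on day 1, at 10.18, 9.61 and 9.77, against 8.17, 7.76 and 8.12 on day 0 (1.83 ± 0.19, limma adjusted p = 1.29e-05). On day 7 it stood at 1.04, and that call was lost under 2 other scalings and without replicate 2 of day 0.

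The late gene was SLC1A1, a glutamate carrier. It read 6.10, 4.72 and 4.89 on day 0, 5.89, 5.39 and 5.63 on day 2, and 10.41, 10.18 and 10.34 on day 7, with a change of 5.07 ± 0.37 on day 7 (limma adjusted p = 1.81e-07). It has 5 probe sets, and its call on day 4 (3.36 ± 0.37) was lost with their mean. The glutamine carrier SLC1A5, named after its values were seen, rose by 1.40 ± 0.19 by day 7, and SLC38A1, likewise, by 1.48 ± 0.46 on day 1 (limma adjusted p = 0.031). SLC3A1 fell by 1.23 on day 1, a call lost without replicate 1 or 2 of day 0 or replicate 2 or 3 of day 1. The light chains SLC7A5 and SLC7A11, partners of SLC3A2, had no named probe set.

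**Figure D5:**
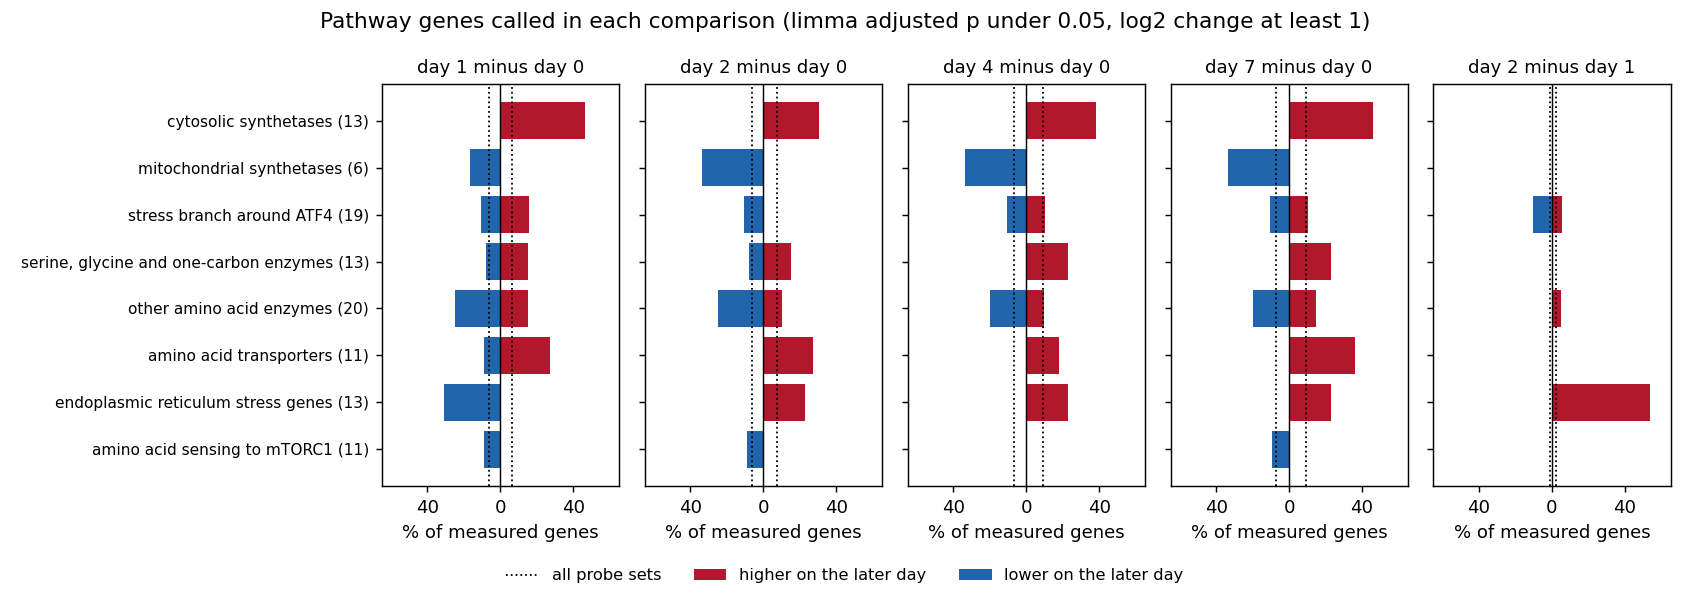
Percent of measured genes (horizontal axis) called higher (red, to the right) or lower (blue, to the left) on the later day in 5 comparisons (panels) for the 8 pathway lists (rows, number measured in parentheses); dotted lines give the percent of all probe sets called each way. Against day 0, cytosolic synthetases are called only higher, and mitochondrial ones, with 1 or 2 of 6 called, only lower. Endoplasmic reticulum genes are lower on day 1 and higher on day 2 than on day 1.

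The genes of the array whose course was nearest to that of the 9 were found from the root mean square difference of centred log2 values over the 15 arrays, among 2135 genes whose day means spanned at least 1. Nearest to ASNS were MRLC2 (0.27), TPM4 (0.28), RBFOX2 (0.28), MARVELD1 (0.29) and CAP1 (0.29), with a median of 0.89 over all candidates. Among the 9, GARS came nearest to ASNS at 0.32, then AARS at 0.41 and NARS at 0.42, and PSAT1 was the farthest at 1.00. Nearest to the average of the 9 were TMBIM1 (0.18), CTTN (0.19), GLO1 (0.20), MRPS34 (0.20) and ATP6V1H (0.20). All these values come from the same 15 arrays and share their normalization.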

How the data were processed

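Total RNA of 15 samples was hybridised after biotin labelling to porcine arrays. The deposited values are log2 intensities made by the authors with RMA (background correction, quantile normalization and summary per probe set), per the submitters' processing notes, whose version the sources used here do not give. They ran from 2.29 to 14.9. Same-day arrays correlated at 0.963 to 0.996, and none of 105 pairs was identical. The number of arrays limits the precision. Nothing says whether replicates came from separate animals or cultures, so p-values measure only the spread between these arrays.

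Of 24123 probe sets, 124 controls were left out. Platform annotation gave 1 symbol to 10069, several to 198 and none to 13732; only the first kind was named. One limma model (version 3.58.1, R 4.3.3, lmFit and eBayes) with day as its factor covered the 15 arrays, and 8 comparisons were made with Benjamini-Hochberg adjustment over 23999 probe sets, after a test on simulated data. The 9 genes and all lists were chosen with earlier results of these data known. Named from each list were up to 2 genes with the highest and 2 with the lowest change among those called against day 0, plus PSPH, SHMT2, MTHFD2, DDIT3, TRIB3, ATF3, CEBPB, SLC7A11, SLC3A2, SLC7A5 and EIF2AK4; others are marked as named after their values were seen. Deviations from day means of same-numbered arrays correlated at 0.0609 to 0.727, with 23 of 24 over 0.1. The labels name no pairing, so the main fit had no block in spite of these correlations. A fit with replicate number as a block was run as an alternative. Alternatives were 3 scalings, a filter on the dimmest 40%, trend and robust eBayes, replicate block, no minimum change, only the 6 arrays compared, mean of a gene's probe sets, each array left out and, chosen after seeing the data, replicates 2 and 3 only. A planned motif search in promoters was not run, and no positions or sequences were used here.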

Additional observations from a re-analysis of the deposited data

How the results depend on the processing

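The changes of the 9 genes kept their size within 1 SD in 594 of 648 values under other processing. With an array left out they did so in 1080 of 1080. Many of these values could not move. The filter, trend and robust eBayes, the replicate block and the fit of 6 arrays leave a log2 change as it is. So does leaving out an array of a day not compared, and leaving out 1 of 3 shifts a day mean by less than that day's SD. Neither count is therefore a measure of stability. No called change changed sign. Several small changes that were not called did, most of them between neighbouring days: PSAT1 on day 4 minus day 2 was -0.20, and 0.30 with replicates 2 and 3 only, GARS in the same comparison was 0.13, and -0.10 with the mean of its probe sets, ASNS was 0.03, and -0.06 without replicate 2 of day 2, and AARS on day 7 minus day 1 was 0.05, and -0.08 after a second quantile normalization. Of the 54 that moved, 25 came from cyclic loess, 16 from a second quantile normalization and 12 from the mean of a gene's probe sets. Each of these settings had 72 values. Against day 0, the number of the 9 called ran from 3 (cyclic loess) to 7 for day 1, from 5 to 6 for day 2, from 4 to 7 for day 4 and from 7 to 9 for day 7. For the named pathway genes, 798 of 828 values under other processing and 1329 of 1380 with an array left out kept their direction and side of the threshold; the others lost their call and none reversed. Brighter transcripts sat higher in culture as deposited: against day 0 the median change of the brightest 25% of probe sets was 0.20 (day 1) and 0.19 (day 7), and the count of cytosolic synthetases on days 2, 4 and 7 fell under scalings that alter this; the cause was not tested.

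With no minimum change, 6020, 6248, 7360 and 7514 probe sets and 54, 42, 53 and 50 pathway genes were called on days 1, 2, 4 and 7 against day 0, beside 3001, 3306, 3811 and 3993 probe sets and 32, 25, 25 and 30 pathway genes with it. The same setting gave 1461 probe sets and 19 pathway genes for day 2 minus day 1, against 729 and 11, then 1002 and 3 for day 4 minus day 2, against 608 and 1, and 4524 and 36 for day 7 minus day 1, against 2168 and 22. For day 7 minus day 4, 14 probe sets and 0 pathway genes were called by limma (3 higher and 2 lower at an unadjusted p under 0.05).

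Replicates 2 and 3 only gave 1321 probe sets and 17 pathway genes for day 2 minus day 1, 4 pathway genes for day 4 minus day 2 and 55 probe sets for day 7 minus day 4. Only the 6 arrays compared gave 7 pathway genes for day 2 minus day 1, 371 probe sets for day 4 minus day 2 and 0 for day 7 minus day 4. The mean of a gene's probe sets gave 0 pathway genes for day 4 minus day 2, and the filter gave 4 probe sets for day 7 minus day 4. With replicate number as a block, day 7 minus day 4 had 41 probe sets, and all other counts of probe sets and of pathway genes stayed within 1.5 times.

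With each array left out in turn, day 1 against day 0 had 2761 to 3072 probe sets and 28 to 34 pathway genes called, day 2 had 3160 to 3377 and 22 to 26, day 4 had 3651 to 3917 and 21 to 29, and day 7 had 3787 to 4136 and 26 to 31. For day 2 minus day 1 they ran from 451 to 986 and 7 to 13, for day 4 minus day 2 from 419 to 653 and 1 to 3, for day 7 minus day 4 from 4 to 15 and 0 to 0, and for day 7 minus day 1 from 2031 to 2235 and 19 to 23. Values near the lower quartile, such as the second ATF4 probe set, are limited by background.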

Other observations

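Enzymes of other amino acids (20 of 27 measured) moved both ways. On day 7 against day 0, PYCR1, BCAT1 and GOT2 rose and ASRGL1, BCKDHB, BCAT2 and ASS1 fell. PYCR1, which makes proline, read 6.89, 6.67 and 6.50 on day 0, 7.75, 7.44 and 7.95 on day 1, and 9.88, 9.60 and 9.93 on day 7, and rose by 3.12 ± 0.19 by day 7 (limma adjusted p = 3.26e-08). BCAT1, the cytosolic aminotransferase of branched-chain amino acids, rose by 2.47 ± 0.26 (limma adjusted p = 6.74e-06), while the mitochondrial BCAT2, named after its values were seen, fell by 1.62 ± 0.17 (limma adjusted p = 7.18e-06). BCKDHB, a subunit of the complex that breaks these amino acids down, fell by 2.18 ± 0.19 on day 1 and by 2.06 ± 0.19 on day 7 (limma adjusted p = 1.98e-06 on day 7). ASRGL1, which splits asparagine, read 8.34, 8.23 and 8.41 on day 7, against 11.85, 11.48 and 10.38 on day 0, and fell by 2.91 ± 0.32 (limma adjusted p = 8.59e-06), on the same arrays on which ASNS stood 2.19 higher. GOT2 and ASS1, also named after their values were seen, changed by 1.03 and -1.05 on day 7.

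Of 11 measured genes of amino acid sensing to mTORC1, none was called higher by limma on any day against day 0 (3, 1, 4 and 5 were higher at an unadjusted p under 0.05 on days 1, 2, 4 and 7), and SESN1 was the only one called lower with all arrays. Both counts lie near the share of all probe sets called, 6.47% to 9.36% higher and 6.03% to 7.28% lower. It encodes a sestrin, of the family of leucine sensors, and stood at -1.36 ± 0.33 on day 1 (limma adjusted p = 0.00674). Its call on day 7 (-1.02, limma adjusted p = 0.0281) was lost without replicate 2 or 3 of day 0 or replicate 1 or 3 of day 7.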
